A study of Homo sapiens with 12 samples.

Results

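Accessible chromatin in HCT116 cells carrying both EHF and CDX1 was compared with that in HCT116 cells carrying EHF alone. The regions described are those of the ATAC-seq count table on chromosomes 1 to 22, except the regions at the EHF and CDX1 genes, which the introduced sequences fill with reads. They number 29449 of 30170 regions in the table. A further 710 regions lay on chromosomes X and Y and 11 lay at the introduced genes. Of the 29449 regions, 29434 passed a filter of 3 CPM (counts put on a common scale across libraries) in at least 1 library and were tested, and 15 did not.

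HCT116 is an established, poorly differentiated human colorectal carcinoma line. The EHF line was transfected with an EHF expression plasmid and selected as geneticin-resistant clones. The CDX1 line was transduced with a CDX1 retrovirus that also encodes GFP, and its GFP-positive fraction was collected by sorting. For the EHF+CDX1 line, CDX1 cells were themselves transfected with the EHF plasmid and geneticin-resistant clones were selected, so this line does not descend from the EHF line, and the comparison differs in clone and in the vector carried as well as in CDX1. The other line carried the empty vector (EV). Each line had 3 libraries. Nothing in the labels says that libraries of a line came from separate cultures or clones, so the p-values measure the spread between libraries, which may be technical.

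EHF is an ETS-family transcription factor of epithelial cells, and CDX1 is a caudal-type homeobox factor expressed in the intestinal epithelium, where it acts with its relative CDX2 on genes of enterocyte differentiation. ETS factors bind sequences around GGAA, and caudal factors bind A/T-rich sites around TTTAT. ATAC-seq inserts adapters into open DNA with the Tn5 transposase, so reads collect at accessible promoters and enhancers. In such counts, a larger number of DNA copies of a locus, a more accessible locus and a larger share of cells with the locus open cannot be told apart.

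The introduced genes matched the labels. The 3 regions at CDX1 held 32, 104 and 39 counts in the EHF libraries and 545352, 77147 and 310557 in EHF+CDX1 libraries 1, 2 and 3. The 8 regions at EHF held 34.7% to 68.3% of the counts of the EHF libraries, and 35.6%, 5.43% and 39.9% of those of EHF+CDX1 libraries 1, 2 and 3. EHF+CDX1 library 2 thus had the smallest share of counts at the introduced genes among the 6 libraries. It also had the most counts in the remaining regions, 889368 after leaving out regions that match mitochondrial DNA, against 228020 to 448939 in the other 5 libraries. Its counts were spread more evenly, with quartiles of 16 and 33 counts per region (a ratio of 2.06, against 3 to 4.5 in the other 5 libraries). The counts of called regions over the whole set are therefore given with and without that library.

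**Figure D1:**
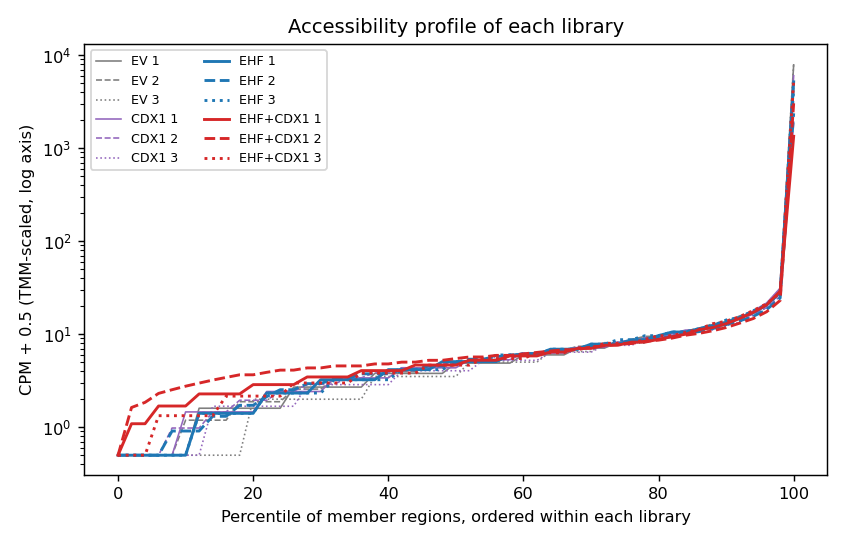
CPM plus 0.5 on a log axis (scaled by the trimmed mean of M-values) against the percentile of the 29256 tested regions without a mitochondrial match, ordered within each library. EHF+CDX1 library 2 (red, dashed) lies above the other 11 libraries in the lower part of the range, where many regions of the EHF libraries (blue) hold 0 counts.

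With all libraries, 1064 regions were higher and 198 were lower in EHF+CDX1 cells (edgeR quasi-likelihood test, Benjamini-Hochberg adjusted p under 0.05). Over all 30154 regions tested, X, Y and the introduced genes included, 1100 (3.65%) were higher and 211 (0.7%) lower. When EHF+CDX1 library 2 was left out, 55 regions were higher and 6 were lower, against 0.208% and 0.0574% of the 27861 regions of the table still tested. Of the 1064 higher regions, 878 were still tested, and the others had passed the filter only through that library. All 198 lower regions were still tested. Of the 1064 and 198 regions, 53 and 5 were called in both fits, against 0.201% and 0.0538% of the 27861 regions. That last share is 15 regions, of which 10 lay on the Y chromosome. The groups did not overlap in CPM in 933 of the higher and 176 of the lower regions, against 20.7% of all regions. Leaving out EHF library 2, which had the most counts of its group in these regions, left 309 higher and 77 lower regions. Without EHF library 1 the counts were 590 and 124, without EHF library 3 they were 477 and 124, and without EHF+CDX1 library 3 they were 1644 and 307.

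The higher regions held few counts in EHF cells, which selection for a higher level in EHF+CDX1 cells favours. Of the 1064, 926 had at most 3 counts in every EHF library and 337 had none in any. Over the 29256 tested regions without a mitochondrial match, these numbers were 4910 and 623. At this depth such counts do not show that a region is closed. The median CPM of the 1064 regions was 0 in each EHF library, and 4.75, 8.8 and 3.32 in EHF+CDX1 libraries 1, 2 and 3. In the CDX1 libraries their medians were 0.962, 0.482 and 1.18 CPM, and in the EV libraries 1.1, 0.691 and 0 CPM. EHF+CDX1 library 2 supplied a median of 76.7% of the counts of EHF+CDX1 cells in higher regions and 61.9% in regions not called. The part of that library in the result was not tested beyond the fits without it. The median fitted log2 fold change was 4.07, or 3.25 with regions at 0 in EHF cells set to a bound of 3 counts over the group.

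The lower regions held reads in EHF cells and fewer in EHF+CDX1 cells, which is how they were selected. Their median CPM was 8.23, 10.2 and 8.23 in the EHF libraries and 2.37, 2.03 and 2.49 in the EHF+CDX1 libraries, a median log2 fold change of -1.96. Medians in the CDX1 libraries (5.77, 8.68 and 4.73 CPM) and in the EV libraries (5.49, 7.6 and 6.01 CPM) were nearer to those of EHF cells. Of the 198, 31 had at most 3 counts in every EHF+CDX1 library.

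CDX1 on its own gave no call at these regions. In CDX1 against EV cells, which share no library with the comparison above, 0 regions of the table passed the same edgeR threshold, and 1150 (3.81%) had an unadjusted p under 0.05. These libraries were shallow. The median region held 4, 9 and 3 counts in CDX1 libraries 1, 2 and 3 and 4, 6 and 2 in EV libraries. The absence of a call therefore does not show that CDX1 alone left these regions unchanged. The median log2 fold change of CDX1 against EV cells was 0 in the 1064 higher regions and -0.00275 in the 198 lower regions. Of the higher regions, 511 had a positive value, and 42 had an unadjusted p under 0.05 in the same direction against 36 in the opposite direction. The difference between the effect of CDX1 with and without EHF was not tested.

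Of the higher regions called in both fits, 6 are shown with their sequence, because they are the strongest calls outside exons that have no near-identical copy elsewhere in the genome (at least 90% identity over 80% of the length). The sequences are the plus strand of hg38 from start to end, and capitals mark a CDX core (TTTATG or TTTATT on either strand).
ZNF722 (nearest protein-coding gene), chr7:63926316-63926489: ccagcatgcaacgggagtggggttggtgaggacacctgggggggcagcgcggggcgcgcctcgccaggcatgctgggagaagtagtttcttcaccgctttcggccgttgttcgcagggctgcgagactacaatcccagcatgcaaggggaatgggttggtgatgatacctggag
TRIB2, chr2:13558475-13558666: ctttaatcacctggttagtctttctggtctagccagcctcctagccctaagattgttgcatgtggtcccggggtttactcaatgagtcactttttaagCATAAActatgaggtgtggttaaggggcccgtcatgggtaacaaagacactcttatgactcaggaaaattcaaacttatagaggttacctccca
SLC39A10, chr2:195330716-195330887: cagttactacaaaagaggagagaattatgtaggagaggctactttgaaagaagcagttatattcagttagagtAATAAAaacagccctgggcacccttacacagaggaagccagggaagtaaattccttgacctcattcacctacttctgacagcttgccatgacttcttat
PTPRZ1, chr7:121714708-121714858: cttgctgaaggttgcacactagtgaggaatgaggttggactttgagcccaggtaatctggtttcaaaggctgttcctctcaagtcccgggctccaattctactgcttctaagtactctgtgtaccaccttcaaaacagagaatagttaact
SLC44A1, chr9:105318980-105319130: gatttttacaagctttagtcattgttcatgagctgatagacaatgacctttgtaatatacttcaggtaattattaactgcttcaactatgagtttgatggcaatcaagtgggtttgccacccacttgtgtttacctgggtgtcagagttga
OTOL1, chr3:161854435-161854654: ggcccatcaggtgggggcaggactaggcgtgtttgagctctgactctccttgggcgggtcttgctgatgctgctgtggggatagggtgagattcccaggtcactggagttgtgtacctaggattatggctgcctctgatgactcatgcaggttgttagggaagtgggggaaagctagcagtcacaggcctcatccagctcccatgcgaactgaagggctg

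The TRIB2 and SLC39A10 regions held 1 CDX core each and the other 4 held none. None of the 6 held an ETS core (CGGAAGT or AGGAAGT). The AP-1 element (TGAGTCA or TGACTCA) occurred at 2 places in the TRIB2 region and at 1 place in the OTOL1 region. These matches are letters in the window and do not show binding.

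The region near ZNF722, a zinc finger gene, lay in an intron of an unnamed gene. It was 72.4 kb from the ZNF722 start and 0.01 kb from the nearest annotated start of any gene. It held 0, 2 and 0 counts in the EHF libraries and 38, 120 and 15 in the EHF+CDX1 libraries. The ratio of scaled counts was 54.9 (95% counting interval 15 to 457), and the fitted log2 change was 5.42 ± 0.69 (SE), at an adjusted p of 3.0e-09. Without library 2 it was 5.14 (adjusted p = 6.5e-05). A second region near ZNF722, over exons of non-coding RNAs at chr7:63900740-63900890, held no count in EHF cells and 12, 67 and 10 in EHF+CDX1 cells, at least 18.8-fold higher. ZNF736, another zinc finger gene on 7q, had 0, 3 and 0 counts at its own start (chr7:64313820-64313987) against 29, 48 and 18 counts. All 3 regions separated the groups in every library.

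The start of TLE4, a Groucho-family transcriptional corepressor, held few counts in EHF cells. Its region, at chr9:79571558-79571894 in an exon, held 0, 0 and 5 counts in EHF cells and 53, 139 and 29 in EHF+CDX1 cells. In CPM this was 1.52 ± 2.64 against 29 ± 4.23 (SD, n = 3), with 0.788 in CDX1 cells and 0.962 in EV cells. On the log2 scale the difference was 4.59 ± 0.61 (SE), with an adjusted p of 5.8e-07, with all libraries and 4.51 (adjusted p = 0.000119) without library 2. The start of KCNV1, a potassium channel modifier subunit on chromosome 8, likewise held few counts in EHF cells. Its exonic region held 4, 1 and 2 counts against 56, 96 and 12, 3.72 ± 0.56 (SE) on the log2 scale at an adjusted p of 1.9e-06. A second KCNV1 region held 1, 1 and 1 counts against 29, 55 and 13.

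Other higher regions lay away from start sites. The SLC39A10 region, 245 kb from the start of that zinc transporter gene, held 1, 1 and 2 counts against 31, 69 and 18. In CPM it stood at 1.05 ± 0.721 in EHF and 16.3 ± 1.84 in EHF+CDX1 cells (SD, n = 3), and its adjusted p without library 2 was 0.000135. The OTOL1 region, 358 kb from that inner-ear collagen-like gene, held 4, 2 and 4 counts against 52, 110 and 16. The TRIB2 region, 840 kb from this pseudokinase gene, had 0, 1 and 0 counts against 19, 101 and 5, and the PTPRZ1 region, 158 kb from a receptor tyrosine phosphatase gene, had 0, 0 and 1 against 12, 89 and 9. In the intron of SLC44A1, a choline transporter gene, the counts were 0, 1 and 0 against 13, 83 and 12. In TRIB2 and PTPRZ1 the lowest EHF+CDX1 libraries still lay above every EHF library.

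Among the 15 strongest higher regions were several whose counts are uncertain, because near-identical copies exist elsewhere. The regions nearest SUCLG1 and CRIM1 on chromosome 2, FRG1 on chromosome 4 and KHDRBS2 on chromosome 6 had 563, 3709, 62 and 420 such copies. The FRG1 region held 3, 2 and 1 counts in EHF cells against 53, 76 and 16 in EHF+CDX1 cells. In all, 18 of the 58 regions called in both fits had a copy.

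Only 5 lower regions were called in both fits, and 3 of them had copies. The region nearest TPTE, at chr21:10325737-10325909, had 28 copies and was the strongest call: 24, 77 and 37 counts in EHF cells against 4, 7 and 0 in EHF+CDX1 cells, -4.23 ± 0.5 (SE) on the log2 scale at an adjusted p of 1.8e-10. It held 40, 45 and 54 counts in CDX1 cells and 57, 58 and 32 in EV cells. Regions in FAM230F on chromosome 22 (10 copies) and FAM230C on chromosome 13 (30 copies) had log2 fold changes of -1.76 and -1.65. The 2 without copies lay 79.5 kb from SMARCA2, a chromatin remodelling ATPase, with 8, 48 and 2 counts against 2, 15 and 1, and 428 kb from ATP11B, with 2, 13 and 9 against 0, 3 and 0. In the SMARCA2 region the groups overlapped in CPM.

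**Figure D2:**
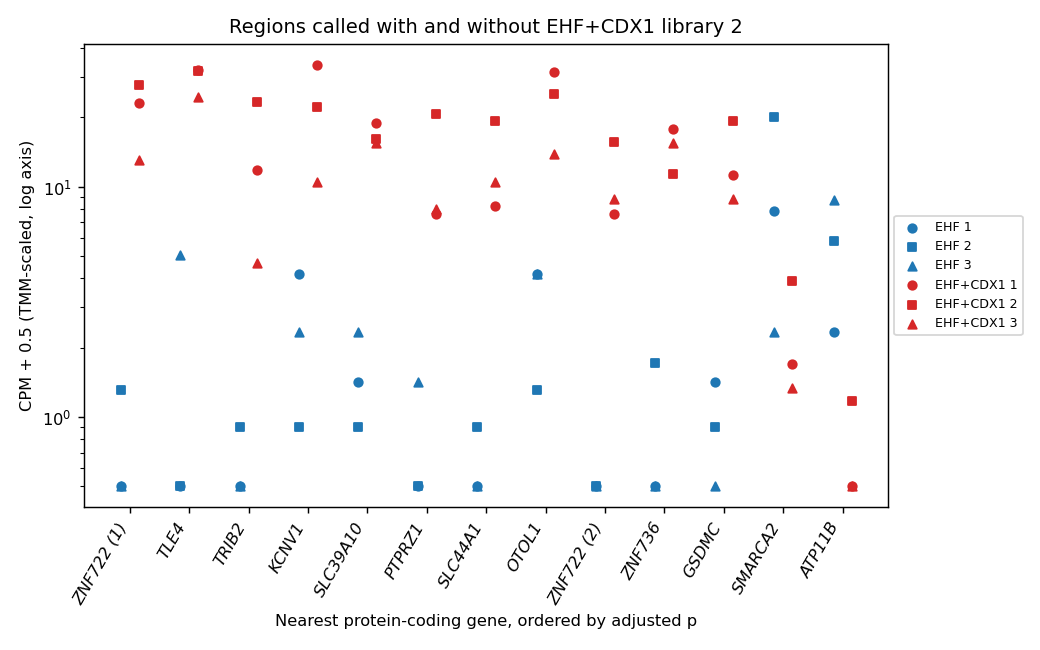
CPM plus 0.5 on a log axis in each EHF (blue) and EHF+CDX1 (red) library for 13 regions without a near-identical copy, named by nearest protein-coding gene. They are those without a copy among the 15 most significant higher regions and the 5 lower regions called with and without EHF+CDX1 library 2. The 11 higher regions separate the groups in every library, and the 2 lower regions, near SMARCA2 and ATP11B, lie at the right.

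Apart from the TPTE region, the largest decreases with at least 20 counts per EHF library on average and no overlap between groups were called with all libraries and not without library 2. The region in TCHH, which encodes trichohyalin, held 20, 21 and 24 counts against 6, 5 and 6, -2.52 ± 0.51 (SE) on the log2 scale at an adjusted p of 0.000625, and -1.85 (adjusted p = 0.121) without library 2. EV and CDX1 cells stood at 5.68 and 4.8 CPM there, nearer to the 3.22 ± 1.95 CPM of EHF+CDX1 cells than to the 16.3 ± 6.93 of EHF cells (SD, n = 3). The intronic BRINP2 region held 17, 33 and 18 counts against 4, 14 and 6, and EV and CDX1 cells stood at 14.6 and 12.5 CPM, near the 15.1 ± 1.56 CPM (SD, n = 3) of EHF cells. ATOX1, a copper chaperone gene, had 18, 75 and 17 counts against 12, 17 and 8, and CDH13, an atypical cadherin gene, had 17, 36 and 8 against 6, 10 and 1. Among the largest increases, DACH1, a transcriptional cofactor gene on 13q, had no count within 0.067 kb of its start in EHF cells and 10, 73 and 6 in EHF+CDX1 cells. That is at least 18.8-fold higher, with an adjusted p of 0.0573 without library 2.

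The called regions lay away from promoters. Of the higher regions, 17.6% lay within 1 kb of an annotated start site, and of the lower regions 26.8%, against 47.6% of the regions not called. Introns held 45.1% of higher, 46% of lower and 34.4% of regions not called. Intergenic sequence held 43.6%, 30.8% and 29.4%. The share of regions called higher was 1.38% within 1 kb of a start site, 4.19% from 1 to 10 kb, 6.03% from 10 to 100 kb and 9.25% beyond 100 kb. The share called lower was 0.391%, 0.963%, 0.974% and 0.402% in the same classes. For calls made in both fits, the higher shares were 0.118%, 0.101%, 0.282% and 0.563%, from 16, 6, 24 and 7 regions.

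**Figure D3:**
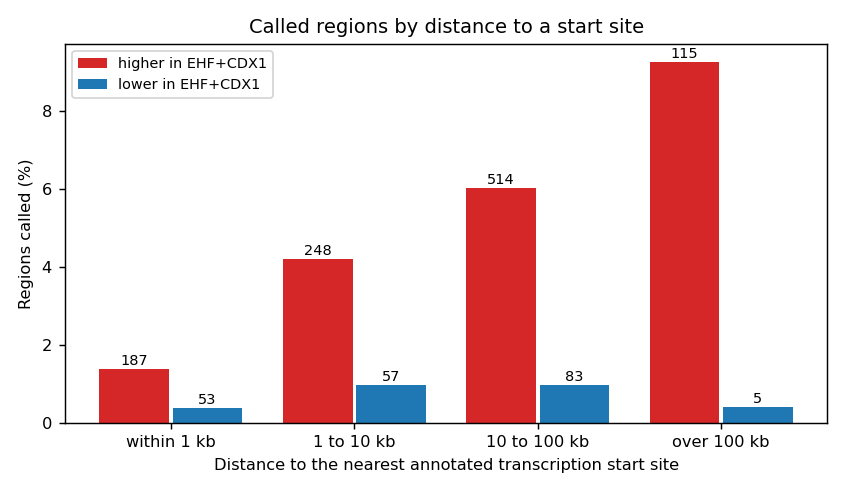
Percentage of tested regions called higher (red) or lower (blue) in EHF+CDX1 cells, by distance to the nearest annotated transcription start site, with the number of regions above each bar. The higher share goes from 1.38% within 1 kb to 9.25% beyond 100 kb.

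Of regions with a mean under 1 CPM in EHF cells, 21.6% were called higher, and of those at 5 to 20 CPM 0.0887%. The level is part of the same comparison, so this is a description. Median GC content was 47% in higher, 52.4% in lower and 57% in regions not called. As a share of all counts, promoter signal did not separate the lines: 50.6%, 49% and 55.2% of the counts of EHF+CDX1 libraries lay within 1 kb of a start site, against 50.6%, 53.9% and 55.1% in EHF libraries. The difference was -1.62 percentage points (exact two-sided permutation test, p = 0.7, adjusted over 3 shares 0.7). With 3 libraries a group this test cannot go below 0.1.

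Sequence content differed between the sets. Among regions of 150 bp, the CDX core was present in 35.2% of 966 higher and 15.9% of 69 lower regions, against 18% of all 16882 tested. Beyond 1 kb from a start site these shares were 37.9%, 17.9% and 24.2%. The core is A/T-rich and so are the higher regions. Within regions of 40 to 50% GC, 45.4% of higher regions and 28.6% of regions not called held it, and from 50 to 60% GC 11.9% and 11.1%. The GATA string AGATAA was in 15.6% of higher regions against 7.34% of all, and beyond 1 kb from a start site in 16.2% against 10.1%. It is A/T-rich too, and its shares were not compared within classes of GC content. The AP-1 element was in 31.9% of lower regions, 14% of higher regions and 15.6% of all. Within regions of 40 to 50% GC it was in 26.9% of 26 lower, 18.2% of higher and 24.2% of regions not called, and from 50 to 60% GC in 32.1% of 28 lower, 11.9% of higher and 17.3% of regions not called. The TEAD string GGAATG was in 23.2% of lower, 11.3% of higher and 10.6% of all regions. The ETS core was in 10% of higher, 5.8% of lower and 8.17% of all regions. Of the higher regions called in both fits, 8 of 27 of this length held the CDX core.

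Weighed by counts, these cores did not separate the lines. Regions with the CDX core took 14.4%, 17.5% and 16.4% of the counts of the EHF+CDX1 libraries and 16.1%, 14.4% and 15.2% of those of the EHF libraries, a difference of 0.868 percentage points (exact two-sided permutation test, p = 0.5). Regions with the ETS core took 12.8% ± 0.664 and 13.3% ± 0.25 (SD, n = 3, exact permutation test p = 0.4). Both sets of libraries overlapped. In the tested shares the adjusted p over 3 shares was 0.7.

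The calls were unevenly placed along the chromosomes, and whole arms shifted. The share of promoter-region CPM was taken on each of 40 arms with at least 20 such regions, relative to the mean of the EHF libraries. The 3 EHF+CDX1 libraries lay above all 3 EHF libraries on 9 arms and below them on 14, and overlapped on 17. Between CDX1 and EV cells 2 arms did not overlap. Arm 10q stood at 0.749, 0.661 and 0.8 in EHF+CDX1 libraries 1, 2 and 3 against 0.956 to 1.05 in EHF libraries, and at 1.01, 1.04 and 1.03 in CDX1 libraries. Arm 16q stood at 0.788, 0.616 and 0.776, and 1p at 0.817, 0.731 and 0.849. In the other direction, 20q stood at 1.37, 1.31 and 1.21, 9q at 1.31, 1.27 and 1.21, 7q at 1.24, 1.31 and 1.17, and 3q at 1.22, 1.26 and 1.17. These shifts were present in each EHF+CDX1 library, library 2 or not. On 13q, libraries 1 and 3 stood at 1.17 and 1.18 and library 2 at 1.74.

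**Figure D4:**
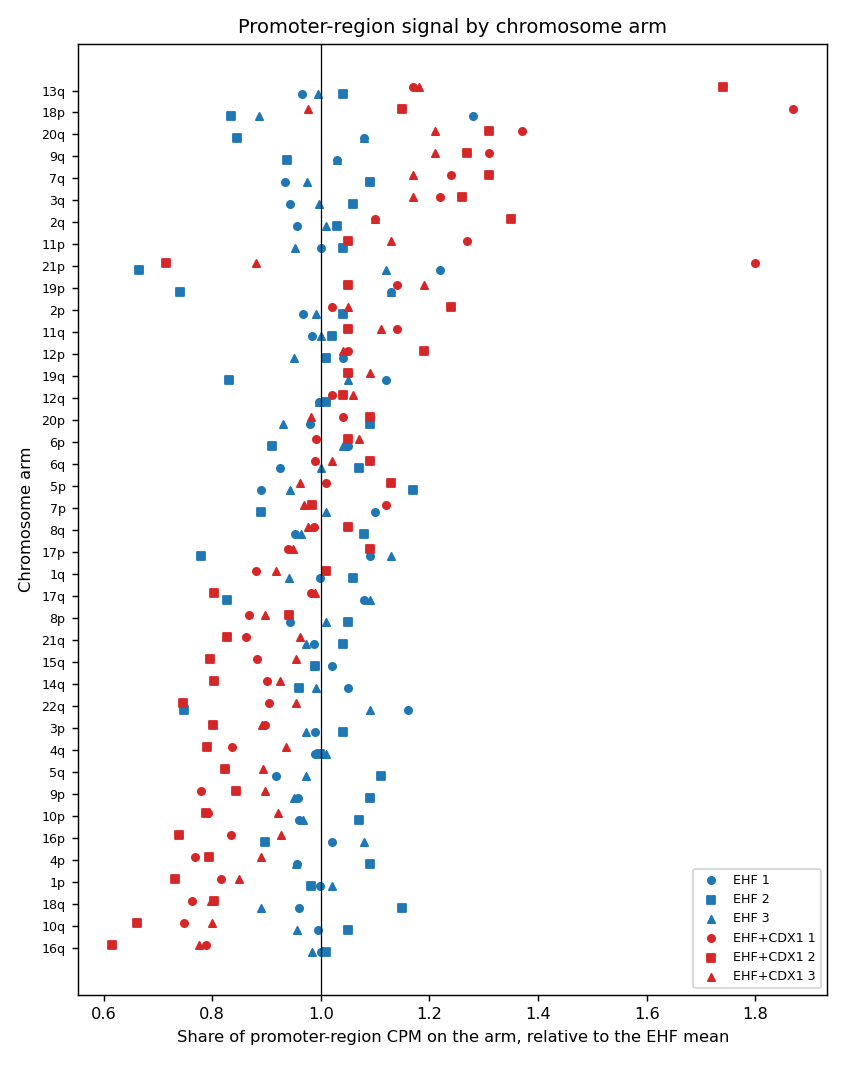
Share of promoter-region CPM on each chromosome arm relative to the mean of the EHF libraries, for the 3 EHF (blue) and 3 EHF+CDX1 (red) libraries, ordered by the EHF+CDX1 mean. Arms 16q, 10q, 18q and 1p stand below the EHF libraries and 7q, 9q and 20q above them in each EHF+CDX1 library.

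Called regions were spread unevenly over these arms. The 14 arms that stood lower held 30.3% of tested regions, 59.1% of lower regions and 14.7% of higher regions. The 9 arms that stood higher held 34.1% of tested regions, 50.5% of higher regions and 10.6% of lower regions. Arm 13q had 131 higher regions of 1250 (10.5%), and 10q had 24 lower regions of 1002 (2.4%). Of these, 1 on 13q and 0 on 10q were called in both fits. Of the 53 higher regions called in both fits, 33 lay on the 9 arms that stood higher and 8 on the 14 that stood lower. With each arm scaled by its own promoter counts, 865 of 1064 higher and 108 of 198 lower regions were still called. Of the 58 regions called in both fits, 57 were called under this scaling, and 50 when EHF+CDX1 library 2 was also left out. DNA copy number was not measured, and clonal differences between the lines cannot be told apart from an effect of CDX1.

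Windows of 5 Mb were ranked by their number of higher regions, and clustering within arms was not tested. The 5 Mb window of chromosome 13 from 70 to 75 Mb, which holds DACH1, had 19 higher regions of 70 tested, 1 of them called in both fits. The window of chromosome 3 from 85 to 90 Mb had 17 of 55, 4 of them called in both fits, and that of chromosome 8 from 110 to 115 Mb had 16 of 50, with 0 called in both fits. Over whole arms, 10.5% of tested regions on 13q, 4.52% on 3p and 5.69% on 8q were higher. On chromosome 7, the windows from 60 to 65 Mb and from 80 to 85 Mb had 7 of 22 and 7 of 46. Of these, 3 and 4 were called in both fits. None of these windows held a lower region. Lower regions were thinner on the ground, with at most 7 of 116 in the window of chromosome 10 from 110 to 115 Mb and 6 of 86 on chromosome 16 from 80 to 85 Mb.

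Lists of genes were examined for the functions near called regions. Regions were linked to the nearest protein-coding start within 100 kb, and 3.64% of tested regions without mitochondrial match were higher and 0.677% lower. Of 58 regions at enterocyte and brush border genes, 7 (12.1%) were higher and 1 was lower, with a median log2 fold change of 0.92 against 0.09 over all regions. Without library 2 none was called, and the median was 0.35 over the 47 regions still tested, against 0.02 over all regions. The other regions of this list had passed the filter only through that library. A DPP4 exon, of the brush border peptidase, held 0, 2 and 0 counts against 10, 39 and 10 (log2 fold change 3.99 ± 0.86 SE, adjusted p = 0.00156, and 0.0534 without library 2). An intergenic region nearest CA2, the carbonic anhydrase 2 gene, held 1, 4 and 0 counts against 6, 42 and 9. It lay 83.1 kb from the CA2 start and 23.2 kb from the nearest annotated start of any gene. The LGALS4 region, 0.101 kb from the start of this intestinal galectin gene, held 2, 0 and 2 counts against 15, 44 and 5.

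The 4 differentiation markers were mixed. CDH17, the intestinal cadherin, had 2 higher regions and 1 lower region: the intronic one held 0, 1 and 0 counts against 14, 33 and 4, the one at its start 1, 2 and 0 against 5, 32 and 9, and the lower one, 2.5 kb from the start, 9, 18 and 7 against 3, 11 and 0. GPA33, an intestinal surface antigen, had 1 higher region in its intron with 3, 3 and 5 counts against 9, 68 and 12 (adjusted p = 0.019, and 0.412 without library 2). None of 4 regions at VIL1, the microvillus actin bundler villin, was called. The intronic one nearest the threshold held 2, 3 and 0 counts against 5, 33 and 9 (adjusted p = 0.0587). The one 1.17 kb from the start held 0, 0 and 0 against 4, 16 and 1 (adjusted p = 0.0795, and 0.357 without library 2). The one 0.082 kb from the start held 0, 1 and 4 against 9, 28 and 0 (adjusted p = 0.299). The 3 regions linked to KRT20, an intestinal keratin, were intergenic and lay 16.9 to 19.5 kb from its start. None was called, with adjusted p from 0.145 to 0.928.

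Intestinal transcription factors had 8 higher and no lower regions of 106 (7.55%), with a median log2 fold change of 0.48. Of these, 4 were nearest HNF4G, a nuclear receptor of the differentiated intestine, 2 CDX2, 1 KLF5 and 1 NR5A2. The CDX2 and KLF5 regions lie on 13q, and with scaling by arm none of these 3 passed the threshold (adjusted p = 0.131 and 0.0615 at CDX2, and 0.0615 at KLF5), which left 5 higher regions. The region nearest HNF4G at chr8:75324320-75324470 lies in an exon of CASC9, 83.4 kb from the HNF4G start, and has 2446 near-identical copies. The HNF4G region 4.51 kb from the start, which has none, held no count in EHF cells and 10, 36 and 2 in EHF+CDX1 cells, at least 10.2-fold higher. The start of NR5A2, a nuclear receptor also called LRH-1, held none against 5, 26 and 6, at least 7.83-fold higher. Epithelial junction and keratin genes had 5 higher and no lower regions of 92 (5.43%). They lay at ST14, the membrane protease matriptase, DSP (desmoplakin), CLDN1, CLDN4 and EPCAM. With scaling by arm the EPCAM region did not pass the threshold (adjusted p = 0.0582), which left 4, and the CLDN4 region on 7q had an adjusted p of 0.0441. The CLDN4 region, 0.127 kb from the start of this claudin gene, held 4, 6 and 2 counts against 18, 55 and 11, and the DSP intron none against 6, 29 and 9. Neither list had a region called without library 2.

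Neuronal adhesion and synapse genes, which are mostly long genes, had 18 higher and 2 lower regions of 151 (11.9% and 1.32%). Their median log2 fold change was 0.37, or -0.11 over the 134 regions still tested without library 2. An SYT1 exon (synaptotagmin 1) held no count in EHF cells and 10, 72 and 4 in EHF+CDX1 cells, and it has 3094 near-identical copies. An intron of CNTNAP2, a neurexin-family gene, held 0, 1 and 0 against 12, 54 and 7, and an intron of the glutamate receptor gene GRIK2 0, 1 and 0 against 10, 51 and 9. Mesenchymal and matrix genes had 4 higher regions, 3 at COL4A2 (a basement membrane collagen) on 13q and 1 near TGFBR2, and 1 lower region at TGFBI, of 94 (4.26% and 1.06%). With scaling by arm, 1 of the COL4A2 regions (adjusted p = 0.0582) and the TGFBI region (adjusted p = 0.104) did not pass the threshold. Lipid and xenobiotic genes had 2 higher and 3 lower regions of 72. The higher ones were at ABCB1, the drug efflux pump, and AHR. The lower ones were nearest ACSL5 and, for 2 of them, the efflux pump gene ABCC2. The ACSL5 region lay in an intron of GUCY2GP, 41.3 kb from the ACSL5 start. The ABCC2 region at chr10:99780221-99780371 has 1840 near-identical copies. ACSL5 and ABCC2 lie on 10q, the arm that stood at 0.749, 0.661 and 0.8. With scaling by arm no region of this list was lower. AP-1 and MAPK feedback genes had 1 higher region of 103, near the start of SPRY2, a feedback inhibitor of MAPK signalling on 13q. With scaling by arm its adjusted p was 0.144 and no region of this list was higher.

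The remaining 7 lists had no call: secretory lineage (27 regions), Wnt and stem cell (49), interferon and antigen presentation (26), cell cycle and replication (63), p53 targets (47), ribosomal protein (40) and HOX (24). By unadjusted p under 0.05, the edgeR fit had 10, 7, 2, 8, 5, 1 and 4 regions in these lists, against 5727 of 29256 regions (19.6%) over the whole set. The secretory list had the highest median of the 14, a log2 fold change of 1.56, or 0.56 over the 21 regions still tested without library 2. Its highest values were near FOXA2, an endoderm factor gene, at log2 fold changes of 2.93, 3.81 and 3.92, none of which passed the threshold.

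**Figure D5:**
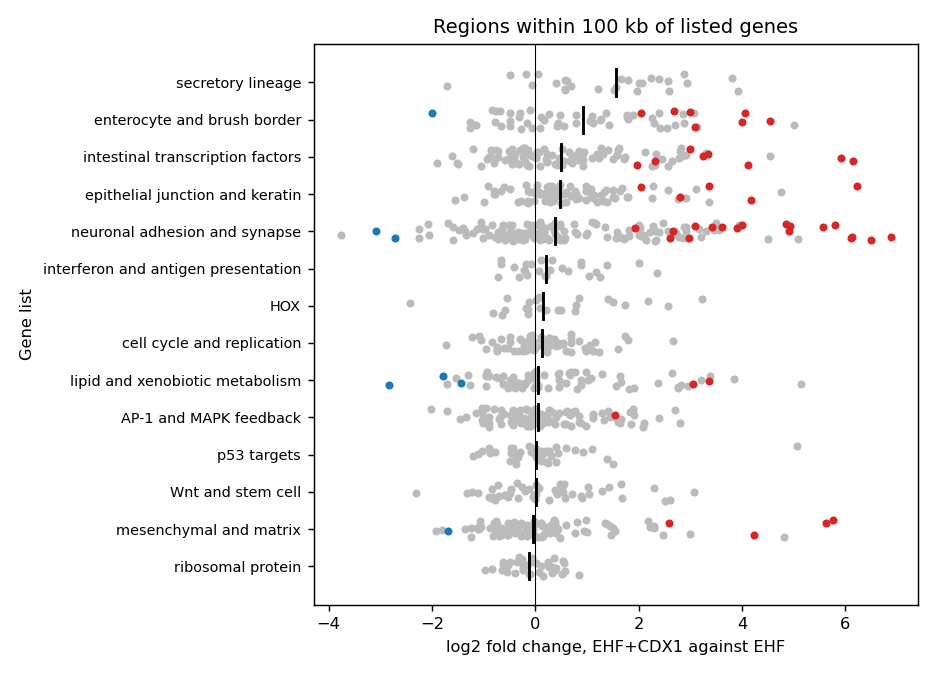
Log2 fold change of EHF+CDX1 against EHF cells for each region linked to the genes of 14 lists, with regions called higher in red, called lower in blue, not called in grey and the list median as a black bar (vertical scatter within a list is random). Medians run from -0.12 for ribosomal protein genes to 1.56 for secretory lineage genes.

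Tested regions lay at the start sites of most epithelial markers. Of 8 epithelial markers, 7 had a region within 1 kb of the start, and their summed level was 50.8 to 68.6 CPM in EHF and 83.1 to 117 CPM in EHF+CDX1 libraries. CDH1 had no such region. Of 14 markers of other cell types, 3 had one (CD68, COL1A1 and COL1A2), with a sum of 13 to 19.2 and 9.14 to 17.4 CPM. The sums run over unequal numbers of regions, so they do not rank the marker lists against each other. CLDN3 stood at a mean of 5.25 CPM in EHF and 14.9 in EHF+CDX1 cells, and CLDN4 at 6.84 and 22.4. Both lie on 7q. EPCAM, KRT8 and CLDN7 differed less, at 18.4 and 19.8, 13.2 and 14.3, and 8.47 and 9.94 CPM. KRT18 stood at 2.2 and 5.64 CPM and KRT19 at 6.2 and 8.73. In EHF cells EPCAM stood at a mean of 18.4 CPM over 3 regions and KRT18 at 2.2 CPM in 1 region. COL1A1 stood at 12.7 CPM over 2 regions. The defining markers of leukocytes (PTPRC), endothelium (PECAM1) and glia (GFAP) had no region among those tested.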

How the data were processed

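ATAC-seq was performed by the study on nuclei of 4 HCT116 lines, with 3 libraries each. Read pairs were aligned by the authors against hg38 (Subread 2.0.0). They kept unique alignments, called peaks with HOMER 4.7, merged them and counted reads with featureCounts 2.0.0. Versions follow the submitters' processing notes. Duplicate removal is not given in the sources used here. The deposited counts are whole reads per region, not normalised. The authors also deposited log2 CPM per library, which hold the 27827 regions with 3 CPM in 2 libraries and were used only in 1 alternative.

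All 12 libraries (567366 to 2443334 counts) entered 1 edgeR 4.0.16 quasi-likelihood fit (R 4.3.3, robust, TMM scaling, 1 coefficient per line) of the 30154 regions with 3 CPM in 1 library, and p-values were adjusted over all of them. The biological coefficient of variation was 0.335. The fitting function was tested on simulated counts with known changes, where direction, false calls and size of the change met their limits. The share of changes recovered missed a bar set beforehand, and that bar was dropped. Genes and start sites were from GENCODE 44. Regions matching mitochondrial DNA (blastn 2.17.0, 40 bp at 80% identity) numbered 178 among those tested, were never called, and were left out of the shares, places and lists. Copies were sought with blastn at 90% identity over 80% of the length. Where a group had no count, the bound used a floor of 3 counts over the group, and where it had 1 to 3, a 95% exact counting interval is given. Both cover counting error only, since amplified reads are not independent molecules.

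Named regions were, first, up to 15 in each direction by adjusted p among those called with and without EHF+CDX1 library 2, then the 8 highest and 8 lowest called fold changes with 20 counts on average in the higher group and no overlap, then up to 4 called regions per gene list and those of VIL1, GPA33, KRT20 and CDH17. Other regions and genes named in small counts, and those near FOXA2 and the second KCNV1 region, were chosen after their values were seen, as was the comparison by chromosome arm. Members and lists were chosen with earlier results of these data known. Same-numbered libraries were checked for pairing by the correlation of their deviations from the group means. Alternatives covered scaling, filters, tools (DESeq2 1.42.0, limma 3.58.1) and each library left out.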

Additional observations from a re-analysis of the deposited data

How the results depend on the processing

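Against 1064 higher and 198 lower regions (1262 in all), the counts moved by over 1.5 times under these settings. Library size alone gave 383 higher and 1 lower (384 in all), 3 CPM in 3 libraries 417 and 82 (499), DESeq2 147 and 11 (158), and limma-trend on the deposited log2 CPM 7 and 1 (8). RLE factors gave 127 lower regions and limma voom with quantile normalisation, the method the study names, 328 lower and 737 higher (69.2% higher, against 84.3%). Library size alone moved the median of all members to 0.651, from 0.083. Leaving out 1 library gave 61 to 1951 calls, 55 to 1644 higher and 6 to 307 lower. The low end of each range is without EHF+CDX1 library 2 and the high end without EHF+CDX1 library 3. Settings added after seeing the data gave 47 higher and 12 lower regions (59) without library 2 of every line, 268 and 132 (400) with cyclic loess offsets, 294 and 43 (337) with voom and no EHF+CDX1 library 2, and 59 and 8 (67) with scaling by arm and no EHF+CDX1 library 2. Same-numbered libraries correlated at 0.091, 0.127 and 0.043, and each library correlated best with its own number. The main fit did not take the numbers as pairs. On 22q, library 2 of the EHF, EHF+CDX1, CDX1 and EV lines stood at 0.748, 0.747, 0.691 and 0.643 of the EHF mean. The other libraries stood at 0.905 or more. On 19p, library 2 of the same lines stood at 0.741, 1.05, 0.709 and 0.772. A shared effect of the library number was not tested beyond a replicate block. That block raised the lower regions to 474 and gave 1245 higher. With mitochondrial matches kept, the difference in the CDX-core share turned from 0.868 to -1.35 percentage points and that in the ETS-core share from -0.475 to 0.972. Leaving out 1 library turned none of the 3 shares. Regions called in the 14 lists numbered 52, 27 when linked within 10 kb and 0 without EHF+CDX1 library 2. Where no value above shows it, the cause was not tested. Of 95 named regions called, many of them named because they were called without EHF+CDX1 library 2, 60 kept the call with DESeq2, 8 with limma-trend and 90 with scaling by arm, and none turned sign.

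Depth limits these results. The median region held 5 to 11 counts in EHF libraries and 5 to 22 in EHF+CDX1 libraries. It held 3 to 9 in CDX1 libraries and 2 to 6 in EV libraries. This limits the power to call a change, and a region without a call is not shown to be unchanged.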
